A study of Homo sapiens with 6 samples.

Results

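Transcripts of 49 genes that repair broken, crosslinked or mispaired DNA were compared between 12Z cells in which SMARCA4 was knocked down and control cells. The genes were chosen by name and sorted by route into 20 for homologous recombination, 10 for the Fanconi anaemia pathway, 5 for mismatch repair, 7 for end joining and 7 for checkpoint signalling. All 49 were among the 15830 genes that had enough reads to be tested, out of 58336 gene identifiers. 12Z is an established human endometriotic epithelial cell line, and SMARCA4 encodes the BRG1 motor of SWI/SNF complexes, which move nucleosomes.

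Each group had 3 libraries. The siBRG1 group received an siRNA against SMARCA4 and the control group a non-targeting siRNA, both at 50 nM, and both groups shared the rest of the treatment in the labels. Medium was renewed at 24 h, serum was lowered from 10% to 0.5% at 48 h, and RNA was taken at 72 h. The protocol also mentions a drug or vehicle, and no sample label names a drug. The labels state neither separate cultures nor separate days, so p-values cover only the spread among the 6 libraries, and that spread may be technical. The control libraries are marked in the labels as reanalysed from an earlier deposit, so the group and any difference between the 2 deposits cannot be told apart.

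Homologous recombination copies the intact sister chromatid to mend a double-strand break. The MRE11 complex and RBBP8 trim the ends, BRCA1, PALB2 and BRCA2 load the recombinase that finds the template, and helicases resolve the joint molecules. The Fanconi pathway recognises crosslinks at stalled forks, where a core complex attaches ubiquitin to the FANCD2 and FANCI pair. Mismatch repair finds replication errors with MutS dimers and processes them with MutL dimers. Classical end joining binds ends with the Ku dimer and seals them with XRCC4 and LIG4, POLQ joins ends through short homologies, and the kinases ATM and ATR report damage to CHEK2 and CHEK1.

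Reads assigned to genes on the sense strand came to 12391161 to 13369692 per siBRG1 library and 40228678 to 49720320 per control library. Reads that met no annotated exon on the sense strand are called no-feature here, and they can lie in introns or antisense to a gene. They made up 3.97 ± 0.194% of reads in siBRG1 and 13.3 ± 0.415% in control (SD, n = 3). Reads with several places in the genome made up 20.3 ± 1.62% in siBRG1 and 9.81 ± 0.224% in control. SMARCA4 itself stood at 60.5, 78.9 and 50.6 CPM (sense counts per 1000000 counts of tested genes, TMM-adjusted) in the siBRG1 libraries and 244, 266 and 262 CPM in control, a fitted log2 fold change (log2FC, siBRG1 over control) of -2.02 (SE 0.161, adjusted p = 0.000267). Of 8 epithelial markers, 2 were called lower and 4 higher, and their sum was 3483 to 3738 CPM in siBRG1 and 3940 to 4026 CPM in control. KRT7 fell from 196 ± 9.10 to 36.9 ± 4.50 CPM and KRT19 from 883 ± 20.4 to 609 ± 14.4 CPM, while KRT18 did not pass and KRT8, at 1655 ± 46.3 against 1556 ± 12.8 CPM, was called higher with a direction that turned after GC and length correction. EPCAM, CDH1 and CLDN4 were called higher at low levels, EPCAM at 1.61 ± 0.264 against 0.251 ± 0.0889 CPM. Summed markers of stromal fibroblasts were 4918 to 5269 CPM in siBRG1 and 2747 to 2940 CPM in control, with 7 of 8 called higher and 1 lower. Over all genes tested, 36.1% were called higher and 36.5% lower. Endothelial markers summed to 15.2 to 21.4 CPM against 17.4 to 20.1 CPM, and CD3E was at 0 in every library. Leukocyte markers summed to 135 to 140 CPM against 77.8 to 82.3 CPM, nearly all of it NCAM1, and the part of any of these differences in the repair genes was not tested. In bulk RNA, fewer cells of a type and less RNA per cell cannot be told apart.

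The 49 repair genes moved in both directions and mostly by less than 2-fold. With edgeR's quasi-likelihood test and a Benjamini-Hochberg adjusted p under 0.05, 21 were lower in siBRG1, 13 were higher and 15 did not pass. That is 69.4% called, against 72.6% of all genes tested, with 42.9% lower against 36.5% and 26.5% higher against 36.1%. The median log2FC was -0.05, beside -0.01 over all genes tested. CHEK2 rose and LIG4 and CLSPN fell by at least 2-fold, and no other repair gene passed that size, which 21.6% of all genes tested reached. All 49 encode proteins, and of the protein-coding genes tested 76.0% were called and 16.7% were called with at least 2-fold. The CPM of the groups did not overlap for 36 of the 49 genes (22 below control and 14 above), a share of 73.5% against 74.3% of all genes tested. The share of repair genes that differed was therefore near that of the whole table, and the values below describe which genes lay on which side.

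**Figure D1:**
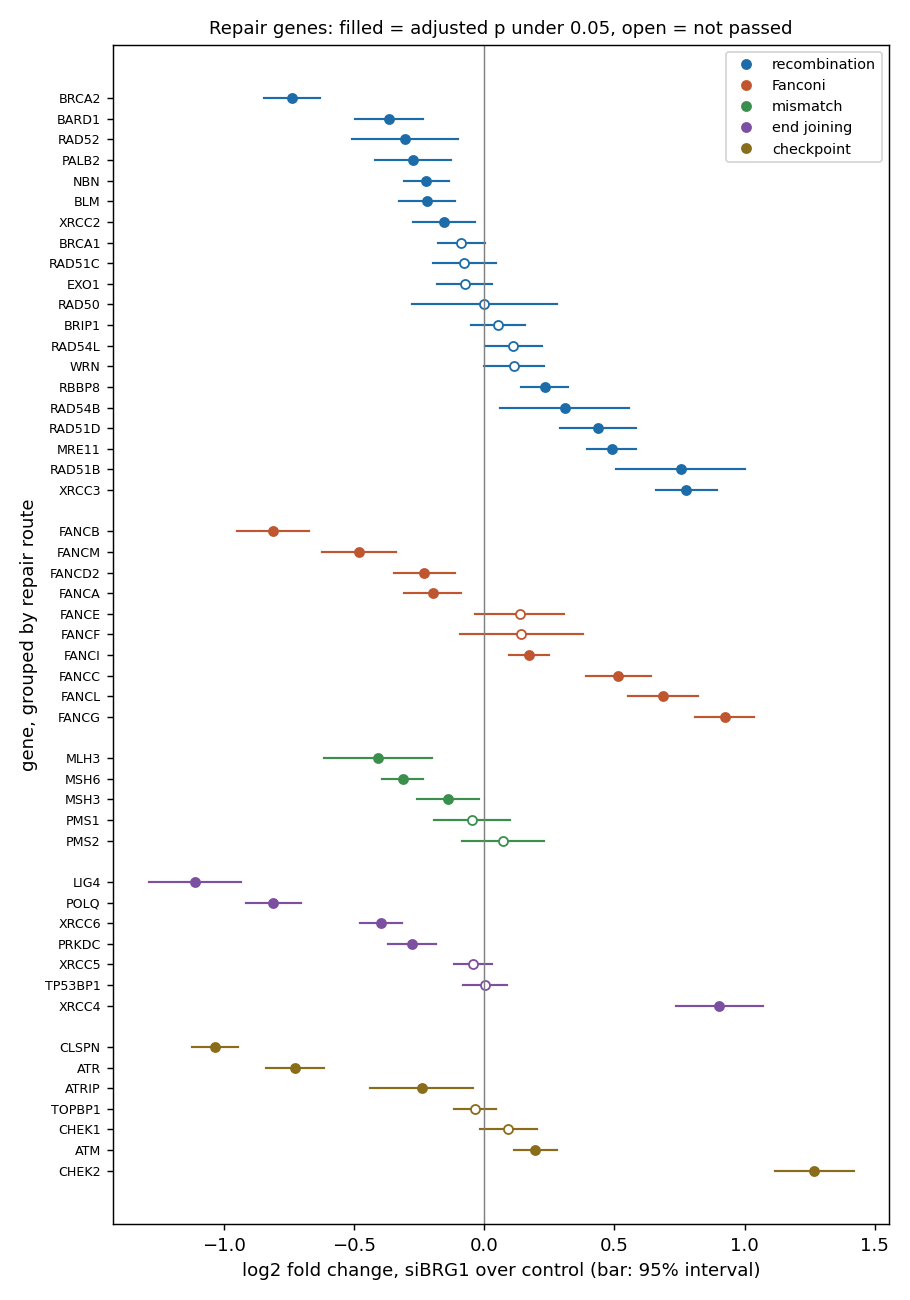
Fitted log2FC of each of the 49 repair genes, siBRG1 over control (x axis), with its 95% interval as a bar, grouped and coloured by route, filled where the adjusted p was under 0.05 and open where not. The estimates run from -1.11 for LIG4 to 1.27 for CHEK2, and every route except mismatch repair holds calls on both sides of 0.

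Checkpoint signalling held the gene with the largest rise and 1 of the 2 largest falls among the 49. CHEK2, the effector kinase downstream of ATM (ENSG00000183765.20, chr22:28687743-28742422, GRCh38), stood at 38.0, 36.8 and 37.4 CPM in siBRG1 and 16.5, 14.4 and 15.6 CPM in control. The lowest siBRG1 library was above the highest control library, and the log2FC was 1.27 (SE 0.0742, 95% interval 1.11 to 1.42, adjusted p = 4.96e-15). CLSPN encodes claspin, the adaptor through which ATR activates CHEK1 (ENSG00000092853.13, chr1:35720218-35769967). Its level was 90.0, 90.9 and 88.1 CPM in siBRG1 and 181, 182 and 189 CPM in control. All siBRG1 libraries lay far below control, and the log2FC was -1.04 (SE 0.0428, 95% interval -1.12 to -0.95, adjusted p = 1.77e-18).

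Among the other 5 checkpoint genes, ATM was called higher and ATR and ATRIP lower. ATM, the kinase activated by double-strand breaks, was at 200, 192 and 189 CPM in siBRG1 and 172, 163 and 172 CPM in control, and rose by 0.20 on the log2 scale (SE 0.0403, adjusted p = 9e-05). ATR, the kinase of stalled forks (chr3:142449235-142578826), was at 41.7, 43.4 and 45.6 CPM in siBRG1 and 71.8, 72.1 and 72.7 CPM in control. The groups were far apart, and ATR fell by 0.73 on the log2 scale (SE 0.0542, adjusted p = 1.06e-12). ATRIP, the subunit that brings ATR to single-stranded DNA, was at 12.4, 13.1 and 13.6 CPM against 14.3, 15.6 and 16.4 CPM, with a log2FC of -0.24 (SE 0.0965, adjusted p = 0.0272). Leaving out 1 library gave adjusted p from 0.0123 to 0.103 for ATRIP, and the call was lost without siBRG1 replicate 1, control replicate 2 or control replicate 3. CHEK1, the effector kinase of ATR, did not pass at 0.09 (95% interval -0.02 to 0.20, adjusted p = 0.122), nor did TOPBP1, an activator of ATR, at -0.03 (95% interval -0.12 to 0.05, adjusted p = 0.438). The 2 called higher were ATM and its effector CHEK2, and the 3 called lower were ATR, its partner ATRIP and its adaptor CLSPN. CHEK1 was called higher in 4 of 15 alternatives (adjusted p from 0.00242 to 0.0285), and ATRIP lost its call in 5. Other genes that act with ATR, given below, moved in both directions.

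The 250 bases before the listed starts of CLSPN and CHEK2 are printed because these were the checkpoint genes with the largest fall and the largest rise. They come from the RefSeq promoter table for GRCh38.p14 and read 5′ to 3′ on the gene's strand. Capitals mark ATTGG, which is CCAAT on the opposite strand, the core word bound by the factor NF-Y. Each window holds 3 of them.
CLSPN, chr1:35769979-35770228 (- strand): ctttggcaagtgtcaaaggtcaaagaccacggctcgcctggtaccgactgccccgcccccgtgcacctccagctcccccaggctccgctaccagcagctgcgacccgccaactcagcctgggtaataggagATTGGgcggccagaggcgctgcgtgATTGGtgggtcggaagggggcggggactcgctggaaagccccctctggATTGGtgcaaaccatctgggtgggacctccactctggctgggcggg
CHEK2, chr22:28741821-28742070 (- strand): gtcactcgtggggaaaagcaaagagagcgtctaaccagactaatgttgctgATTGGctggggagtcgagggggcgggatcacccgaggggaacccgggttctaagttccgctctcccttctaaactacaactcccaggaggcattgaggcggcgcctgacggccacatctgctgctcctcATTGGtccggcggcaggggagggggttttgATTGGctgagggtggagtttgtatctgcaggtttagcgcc
In CLSPN they began 119, 94 and 46 bases before the start, and in CHEK2 199, 70 and 40 bases before it. The word in either orientation was present in 46.5% of the repair genes' windows and in 36.5% of those of all genes tested. The 2 genes hold the same number of matches and moved in opposite directions.

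End joining genes included 4 that fell, 1 that rose and 2 that did not pass. LIG4, the ligase that seals the break (ENSG00000174405.13, chr13:108207439-108218368), was at 18.4, 12.9 and 16.9 CPM in siBRG1 and 35, 35.2 and 34.3 CPM in control. The control libraries were close together and the siBRG1 libraries spread more widely below them, and the log2FC was -1.11 (SE 0.0867, adjusted p = 2.94e-12). XRCC4, the scaffold that binds and stabilises LIG4 (ENSG00000152422.15, chr5:83077498-83353787), moved the other way. It was at 31.0, 31.8 and 39.1 CPM in siBRG1 and 17.5, 19.0 and 18.1 CPM in control, a log2FC of 0.90 (SE 0.0817, adjusted p = 7.27e-11). POLQ, the polymerase of microhomology-mediated joining (chr3:121431427-121546641), was at 49, 47.9 and 50.5 CPM against 88.6, 84.2 and 85.6 CPM. It fell by 0.81 on the log2 scale (SE 0.0517, adjusted p = 3.39e-14), with no overlap between the groups.

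The Ku and DNA-PK genes are the most abundant of the 49 per kilobase of exon. XRCC6, which encodes Ku70, was at 498, 492 and 522 CPM in siBRG1 and 700, 648 and 641 CPM in control, and fell by 0.40 on the log2 scale (SE 0.0398, adjusted p = 6.19e-10). XRCC5, which encodes its partner Ku80, did not pass at 699 ± 12.2 against 720 ± 9.38 CPM (log2FC -0.04, 95% interval -0.12 to 0.03, adjusted p = 0.284). PRKDC, the catalytic subunit of DNA-PK, was at 767, 692 and 731 CPM against 827, 874 and 952 CPM. Its log2FC was -0.28 (SE 0.045, adjusted p = 3.61e-06), and 0.02 (adjusted p = 0.694) once each library's dependence on GC content and exon length had been taken out. TP53BP1, which shields ends from resection, was at 200 ± 11.2 against 199 ± 1.22 CPM and did not pass (log2FC 0.00, 95% interval -0.08 to 0.09). Per kilobase, XRCC6 went from 202 CPM in control to 153 in siBRG1, XRCC5 from 132 to 128 and PRKDC from 57.4 to 47.4.

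**Figure D2:**
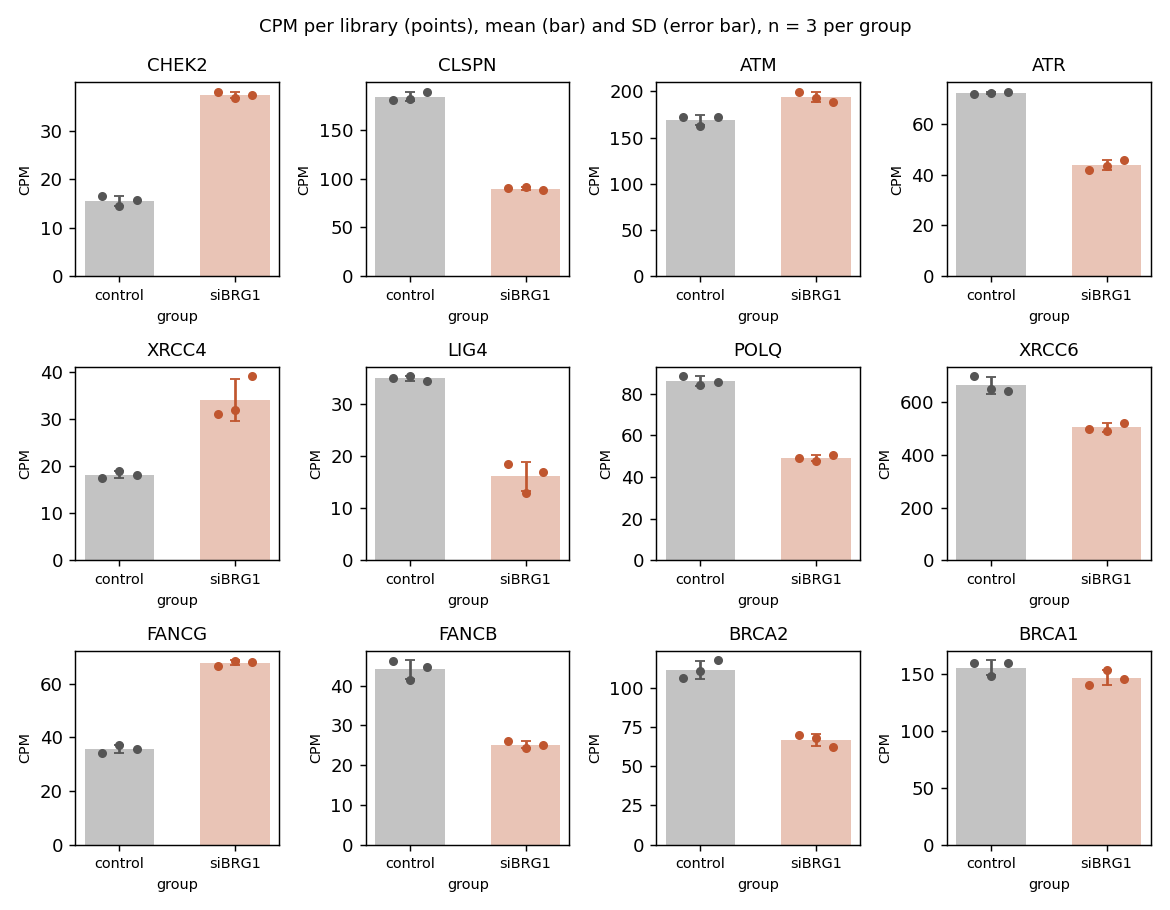
CPM of 12 repair genes (y axis, from 0), with a point for each library, a bar for the group mean and an error bar for the SD (n = 3). CHEK2, XRCC4 and FANCG lie higher in all 3 siBRG1 libraries, and LIG4, CLSPN and POLQ lie lower in all 3.

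Of the 20 recombination genes, 7 fell, 6 rose and 7 did not pass, with a median log2FC of -0.04. Of the mediators that load the recombinase, BRCA2, BARD1 and PALB2 fell. BRCA2, which hands the recombinase to single-stranded DNA (chr13:32315474-32400266), was at 70.1, 68.0 and 62.2 CPM in siBRG1 and 106, 111 and 118 CPM in control. The log2FC was -0.74 (SE 0.0528, adjusted p = 4.25e-13), the largest fall of the route in this fit, and -0.35 after GC and length correction, beside -0.37 for RAD52. BARD1, the ubiquitin ligase partner of BRCA1, was at 38.8, 36.6 and 44.9 CPM against 51.7, 51.3 and 51.9 CPM and fell by 0.37 (SE 0.0639, adjusted p = 1.04e-05). PALB2, the bridge between BRCA1 and BRCA2, was at 29.9, 29.9 and 26.7 CPM against 33.6, 37.5 and 33.8 CPM, a log2FC of -0.28 (SE 0.0709, adjusted p = 0.00109). BRCA1 itself overlapped between groups at 140, 154 and 146 against 160, 148 and 160 CPM and did not pass (log2FC -0.09, 95% interval -0.18 to 0.00, adjusted p = 0.074). BRCA1 was called lower in 5 of 15 alternatives, with adjusted p from 0.008 to 0.0345: DESeq2 size factors, no count filter, protein-coding genes alone, and without siBRG1 replicate 2 or control replicate 2. The helicase BRIP1 did not pass either at 84.1 ± 2.67 against 81.1 ± 4.15 CPM (log2FC 0.05, adjusted p = 0.356). RAD52, an alternative mediator, was at 11.2 ± 0.754 against 13.8 ± 0.334 CPM and fell by 0.30 (SE 0.0993, adjusted p = 0.00783). Thinning the control libraries to the siBRG1 depth removed the call of RAD52 (adjusted p = 0.0575).

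The recombinase paralogues, which stabilise the filament on single-stranded DNA, held 3 rises, 1 small fall and 1 gene that did not pass. XRCC3 (chr14:103697609-103715504) was at 58.9, 56.0 and 56.4 CPM in siBRG1 and 32.8, 34.6 and 32.5 CPM in control, a log2FC of 0.78 (SE 0.058, adjusted p = 1.15e-12). RAD51B (chr14:67819779-68730218) was at 10.9, 9.64 and 10.8 CPM against 6.65, 5.86 and 6.07 CPM, a log2FC of 0.75 (SE 0.121, adjusted p = 3.04e-06). RAD51D was at 31.0, 29.9 and 32.8 CPM against 22.3, 23.3 and 23.7 CPM and rose by 0.44 (SE 0.0708, adjusted p = 3.3e-06). XRCC2 was at 53.5, 48.9 and 47.9 CPM against 57.8, 53.1 and 56.4 CPM. These ranges overlap, and its log2FC of -0.15 (SE 0.058, adjusted p = 0.0195) did not pass after GC and length correction (-0.09, adjusted p = 0.136). Without siBRG1 replicate 2 or 3 or control replicate 1 the call of XRCC2 was also lost, with adjusted p from 0.00663 to 0.0841 over the 6 left out in turn. RAD51C did not pass at 40.5 ± 1.42 against 42.7 ± 1.22 CPM (log2FC -0.08, 95% interval -0.20 to 0.05).

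End resection genes differed within 1 complex. MRE11, the nuclease (chr11:94415578-94493908), was at 111, 106 and 111 CPM in siBRG1 and 80, 77.5 and 75.9 CPM in control, and rose by 0.49 on the log2 scale (SE 0.0459, adjusted p = 1.57e-10). NBN, the subunit that binds ATM, was at 108 ± 0.712 against 126 ± 1.03 CPM, a log2FC of -0.22 (SE 0.0421, adjusted p = 3.14e-05) that came to -0.04 (adjusted p = 0.43) after GC and length correction. RAD50, the third subunit, was at 7.16 ± 1.29 against 7.18 ± 0.286 CPM (log2FC 0.00, 95% interval -0.28 to 0.28). In the annotation 79.7% of RAD50 exon length overlaps another gene on the same strand, so its count leaves out reads that could not be assigned. RBBP8, which encodes the resection factor CtIP, rose from 91.0 ± 1.08 to 107 ± 3.01 CPM (log2FC 0.23, SE 0.0446, adjusted p = 3.99e-05). EXO1, the long-range exonuclease, did not pass at 67.7 ± 3.73 against 71.3 ± 1.51 CPM (log2FC -0.07, adjusted p = 0.196).

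Among the helicases and motor proteins, BLM, which dissolves double Holliday junctions, fell from 71.9 ± 1.07 to 61.8 ± 3.85 CPM (log2FC -0.22, SE 0.0528, adjusted p = 0.000512). After GC and length correction the log2FC of BLM was -0.11 (adjusted p = 0.0453). WRN did not pass at 54.7 ± 2.78 against 50.5 ± 1.60 CPM (log2FC 0.11, adjusted p = 0.0722), nor did RAD54L, the motor that helps strands to pair, at 63.7 ± 3.17 against 58.9 ± 1.5 CPM (log2FC 0.11, adjusted p = 0.0614). Its paralogue RAD54B was at 8.96, 12.1 and 12.5 CPM against a control mean of 8.99 ± 0.499 CPM. The lowest siBRG1 library lay within the control range, and the log2FC was 0.31 (SE 0.121, adjusted p = 0.0236). The call of RAD54B was lost without siBRG1 replicate 2 or 3 or control replicate 1 or 2, with adjusted p from 0.00183 to 0.134 over the 6 libraries left out. It was also lost with no count filter (adjusted p = 0.0561) and with the DESeq2 Wald test (adjusted p = 0.0535).

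The Fanconi genes held 4 falls, 4 rises and 2 genes that did not pass, with a median log2FC of 0.14. Within the core complex, FANCG (ENSG00000221829.9, chr9:35073835-35080016), which holds FANCA in the complex, was at 66.7, 68.6 and 68.1 CPM in siBRG1 and 34.3, 37.3 and 35.8 CPM in control. Its log2FC of 0.92 (SE 0.0557, adjusted p = 9.52e-15) was the largest rise of the route in this fit. After GC and length correction FANCG was at 0.72, beside 0.76 for FANCC and 0.73 for FANCL. FANCL, the ubiquitin ligase subunit (chr2:58159243-58241372), was at 38.5, 38.9 and 37.4 CPM against 24.6, 23.4 and 23.3 CPM, a log2FC of 0.69 (SE 0.066, adjusted p = 2.63e-10). FANCB, which binds FANCL in the catalytic part of the complex (ENSG00000181544.14, chrX:14835961-14873069), was at 26.1, 24.3 and 25.1 CPM against 46.2, 41.6 and 44.6 CPM. It fell by 0.81 on the log2 scale (SE 0.0676, adjusted p = 1.29e-11), opposite to FANCL. FANCA fell from 68.3 ± 1.97 to 59.5 ± 2.74 CPM (log2FC -0.20, SE 0.0528, adjusted p = 0.00145).

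FANCC was at 64.5, 62.0 and 73.6 CPM in siBRG1 and 49, 44.3 and 46.5 CPM in control, and rose by 0.52 on the log2 scale (SE 0.0609, adjusted p = 1.49e-08). FANCE, which links the core to FANCD2, did not pass at 19.1 ± 0.772 against 17.4 ± 0.277 CPM (log2FC 0.14, 95% interval -0.03 to 0.31), nor did the adaptor FANCF at 11.5 ± 1.93 against 10.4 ± 0.656 CPM (log2FC 0.14, 95% interval -0.09 to 0.38). FANCM, the translocase that anchors the core on DNA, was at 31.5, 27.3 and 26.2 CPM against 40.5, 38.6 and 39.9 CPM. Every siBRG1 library was below control, with a log2FC of -0.48 (SE 0.0695, adjusted p = 4.98e-07), or -0.24 (adjusted p = 0.00267) after GC and length correction. The paired substrates of the core went apart. FANCD2 fell from 67.7 ± 1.72 to 57.7 ± 5.18 CPM (log2FC -0.23, SE 0.0572, adjusted p = 0.000741), which came to -0.08 (adjusted p = 0.2) after GC and length correction. FANCI was at 275, 286 and 272 CPM against 249, 248 and 243 CPM and rose by 0.17 (SE 0.0373, adjusted p = 0.000189).

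All calls among the 5 mismatch repair genes were falls, 3 in number, and the median log2FC was -0.14. MSH6, the MutS subunit for single mismatches (chr2:47695530-47810101), was at 187, 194 and 198 CPM in siBRG1 and 245, 234 and 241 CPM in control, a log2FC of -0.31 (SE 0.0388, adjusted p = 3.47e-08). After GC and length correction it was -0.09 (adjusted p = 0.0258). MLH3, a MutL subunit that also acts in meiosis, was at 14.9, 11.4 and 13.6 CPM against 18.1, 16 and 18.9 CPM and fell by 0.41 (SE 0.101, adjusted p = 0.000735). MSH3, the MutS subunit for larger loops, was at 40.4, 41.1 and 40.3 CPM against 43.2, 45.8 and 45.2 CPM. Its log2FC of -0.14 (SE 0.0588, adjusted p = 0.0359) came to -0.09 (adjusted p = 0.197) after that correction. MSH3 also lost its call without siBRG1 replicate 1 or 3 or control replicate 2 or 3, with adjusted p from 0.0174 to 0.0841 over single libraries left out. PMS2, the endonuclease subunit of MutL alpha, did not pass at 22.9 ± 1.37 against 21.7 ± 0.517 CPM (log2FC 0.07, 95% interval -0.09 to 0.23), nor did PMS1 at 32.8 ± 3.20 against 33.9 ± 1.81 CPM (log2FC -0.05, 95% interval -0.19 to 0.10).

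Genes whose proteins work together were then set against each other within each library, as the ratio of their counts, in 16 pairs. A ratio within a library does not depend on that library's total, but it does depend on the GC and length bias of the library. XRCC4 counts were 1.69, 2.46 and 2.31 times those of LIG4 in siBRG1 and 0.500, 0.538 and 0.529 times in control, so the gene with more reads of the pair was XRCC4 in all siBRG1 libraries and LIG4 in all control libraries. The mean ratio was 4.12-fold higher in siBRG1. FANCL over FANCB turned in the same way, from 0.539 ± 0.0206 in control to 1.52 ± 0.0682 in siBRG1 (2.82-fold). FANCG over FANCA went from 0.524 ± 0.00856 to 1.14 ± 0.0375 (2.18-fold), and XRCC3 over XRCC2 from 0.599 ± 0.0465 to 1.14 ± 0.0381 (1.90-fold).

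In the checkpoint arms, CHEK2 over CHEK1 was 0.477 ± 0.0343 in siBRG1 and 0.210 ± 0.0158 in control, and ATM over ATR was 4.45 ± 0.327 and 2.34 ± 0.0702. CHEK1 over CLSPN was 0.877 ± 0.0834 and 0.402 ± 0.00563. MRE11 over NBN was 1.01 ± 0.025 and 0.617 ± 0.0185, and FANCI over FANCD2 was 4.85 ± 0.561 and 3.64 ± 0.0667. The ratios that moved least were XRCC5 over XRCC6, at 1.39 ± 0.0404 and 1.09 ± 0.0435, BRCA1 over BARD1, at 3.69 ± 0.478 and 3.02 ± 0.111, and MSH6 over MSH3, at 4.76 ± 0.147 and 5.37 ± 0.277. RAD51D over XRCC2 was 0.625 in siBRG1 and 0.415 in control, ATRIP over ATR 0.299 and 0.214, and PMS2 over MLH3 1.74 and 1.24. BRCA2 over PALB2 was 2.32 ± 0.0354 in siBRG1 and 3.20 ± 0.269 in control. After GC and length correction the log2 change of the ratio came to 0.05 from 0.49 for ATRIP over ATR, to -0.01 from -0.17 for MSH6 over MSH3 and to -0.13 from -0.46 for BRCA2 over PALB2. The same correction gave 1.97 from 2.03 for XRCC4 over LIG4, 1.34 from 1.5 for FANCL over FANCB, 1.16 from 1.18 for CHEK2 over CHEK1 and 0.65 from 0.93 for XRCC3 over XRCC2. The pairs were picked with the fold changes known, and an exact two-sided permutation test of 3 libraries against 3 cannot go below p = 0.1, so the ratios are only a description of the same counts as the fits above.

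**Figure D3:**
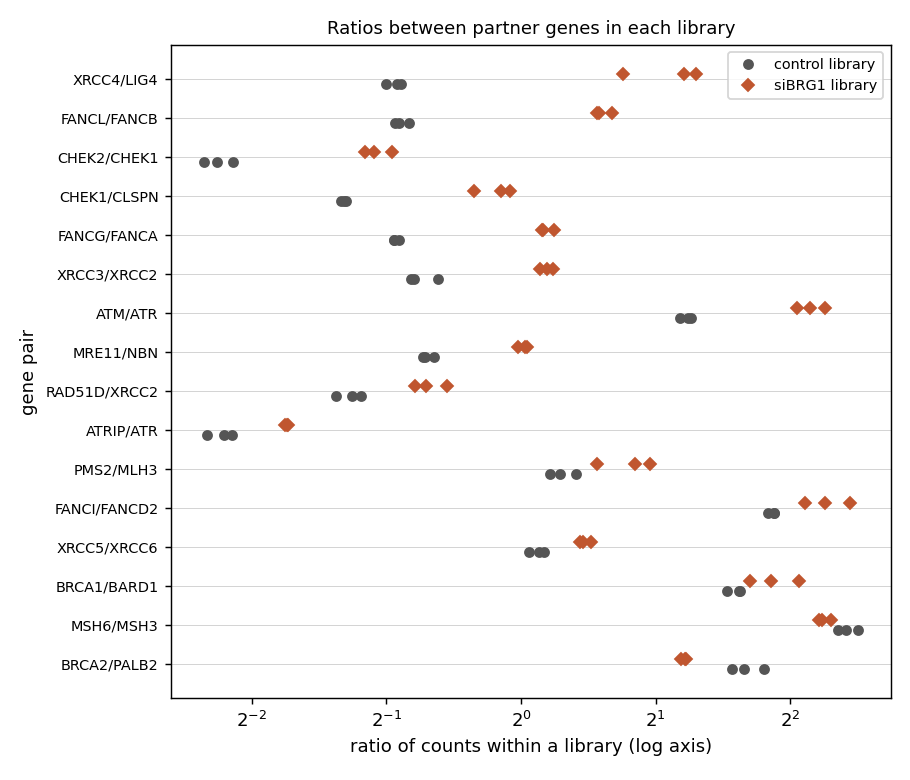
Ratio of counts between 2 genes whose proteins act together (x axis, log scale) in each library, for the 16 pairs (y axis), with circles for control and diamonds for siBRG1. XRCC4 over LIG4 lies above 1 in all 3 siBRG1 libraries and below 1 in all 3 control libraries, as does FANCL over FANCB.

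Other genes of the same routes and of excision repair, from lists chosen with earlier results of these data known, also split between directions. Over all genes tested, 36.5% were lower and 36.1% higher. Of 41 tested recombination and Fanconi partners, 16 fell (39.0%) and 17 rose (41.5%), with a median log2FC of -0.04. Among them EME2, a subunit of a structure-specific nuclease, stood at 3.42 ± 1.14 CPM in siBRG1 and 11.9 ± 1.03 CPM in control (log2FC -1.80, SE 0.159, adjusted p = 4.42e-11). RMI2, a subunit of the BLM dissolvasome, rose from 12.5 ± 0.742 to 29.2 ± 3.22 CPM (log2FC 1.22, SE 0.0885, adjusted p = 5.86e-13), the opposite of the fall in BLM. Of 11 end joining partners, 1 fell (9.09%) and 4 rose (36.4%). The fall was RIF1, an effector of TP53BP1, from 340 ± 14.9 to 175 ± 7.24 CPM (log2FC -0.96, SE 0.0418, adjusted p = 6.31e-18, and -0.56 after GC and length correction), while TP53BP1 itself did not pass. SHLD1, a shieldin subunit downstream of RIF1, rose from 2.01 ± 0.127 to 4.05 ± 0.979 CPM (log2FC 1.02, adjusted p = 8.54e-05).

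Of 11 checkpoint partners 3 fell (27.3%) and 7 rose (63.6%). HUS1, a subunit of the clamp that helps activate ATR, fell from 32.4 ± 3.42 to 16.9 ± 2.02 CPM (log2FC -0.94, adjusted p = 3.52e-10). The other subunits of that clamp rose, RAD9A by 0.62 (adjusted p = 2.15e-07) and RAD1 by 0.18 (adjusted p = 0.00198), as did ETAA1, an activator of ATR, by 0.57 (adjusted p = 4.14e-09) and RHNO1, which acts with the clamp, by 0.30 (adjusted p = 1.01e-05). CDC25C, the mitotic phosphatase that CHEK1 and CHEK2 phosphorylate, rose from 43.1 ± 1.8 to 85.9 ± 3.32 CPM (log2FC 0.99, adjusted p = 5.65e-16). Base excision and strand break repair held 4 falls (16.7%) and 12 rises (50.0%) among 24 tested. NEIL2, a DNA glycosylase, was its largest fall (log2FC -1.07, adjusted p = 0.000103) and MPG, which removes alkylated bases, its largest rise (1.08, adjusted p = 4.07e-11). Nucleotide excision repair held 7 of each (41.2%) among 17 tested, from GTF2H2, a TFIIH subunit, at -0.79 (adjusted p = 1.32e-07) to DDB2, a damage sensor and p53 target, at 1.55 (adjusted p = 3.65e-17).

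Many repair genes are expressed with the cell cycle, so S phase and mitosis genes are given beside them. Of 38 replication genes 23 rose (60.5%) and 8 fell (21.1%), beside 36.1% higher and 36.5% lower over all genes tested. The summed level of the replication genes was 6424 to 6675 CPM in siBRG1 and 5505 to 5580 CPM in control. RPA3, a subunit of the single-strand binding protein, was the largest rise (log2FC 0.95) and MCM10, a replication initiation factor, the largest fall (-0.60). Of 26 mitosis genes 15 fell (57.7%) and 9 rose (34.6%), and their sum was 7487 to 7616 CPM against 8172 to 8382 CPM. The proliferation marker MKI67 fell by 0.59 on the log2 scale (by 0.37 after GC and length correction), and CDK1, the mitotic kinase, rose by 1.22. The 2 sums moved in opposite directions. The median log2FC was 0.22 for the replication genes and -0.15 for the mitosis genes. After GC and length correction these medians were 0.18 and -0.04, beside 0.02 over all genes tested. The part of either list in the repair gene changes was not tested.

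Promoter windows from RefSeq, which run from 250 bases before the listed start to 50 after it, matched 43 of the 49 genes (all but FANCI, NBN, PRKDC, RAD54B, WRN and XRCC5). Some genes have several listed starts, such as LIG4 with 5, MSH6 with 4 and BRCA1 with 2. For these only the first listed window was searched, so a word near another start would be missed. They were searched on both strands for the words TTTCCCGC, TTTCGCGC, TTTGCCGC and TTTGGCGC, which E2F factors bind and which can overlap each other. At least 1 was found in 11 of 43 repair windows (25.6%), in 5.38% of the windows of genes tested and in 3.33% of all windows. The 11 fell into 7 of 19 windows of genes that were lower, 1 of 11 that were higher and 3 of 13 that did not pass. The same split by direction was not made for all genes tested, so these few windows are only described. The short stretches around the word are shown for 7 of the 8 genes that changed, in the orientation of the gene, with the match in capitals. FANCC has 2 separate matches.
CLSPN, chr1:35769965-35769994 (- strand): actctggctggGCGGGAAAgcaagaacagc
XRCC6, chr22:41621326-41621344 (+ strand): gtcgcttccctGCGCCAAA
MSH6, chr2:47783137-47783166 (+ strand): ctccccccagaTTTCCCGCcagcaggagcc
FANCD2, chr3:10026424-10026453 (+ strand): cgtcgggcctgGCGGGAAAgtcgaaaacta
FANCA, chr16:89816801-89816830 (- strand): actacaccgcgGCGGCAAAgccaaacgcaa
XRCC2, chr7:152676102-152676131 (- strand): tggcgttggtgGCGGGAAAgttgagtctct
FANCC, chr9:95317863-95317892 (- strand): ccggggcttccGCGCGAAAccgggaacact
FANCC, chr9:95317737-95317766 (- strand): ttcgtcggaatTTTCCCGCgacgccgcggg
The match in CLSPN began 5 bases before the start and that in FANCD2 2 bases before it, while those in MSH6, XRCC2 and XRCC6 lay 4, 22 and 43 bases after it. FANCC is the gene of this set that rose. The words TTTGAA and TTCGAA, the core of the element of mitotic promoters, were in 9.3% of repair windows and 11% of windows of genes tested. A match is a description of these letters and shows no binding.

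Many repair genes start close to a gene on the other strand. In GENCODE 29, 22 of the repair genes analysed here have a protein-coding neighbour on the opposite strand that starts within 1000 bases, on either side. In 17 pairs both genes were tested. Among these, by the outermost annotated gene ends, the neighbours of CHEK2, XRCC4, ATM, MRE11 and PMS1 start inside the repair gene. At the RefSeq starts first listed for the promoter windows, the neighbours of CHEK2, ATM and PMS1 instead start before the repair gene. The bases printed above for CHEK2 take in the annotated start of its neighbour HSCB. Both fell in 4 pairs, both rose in 2, they were called in opposite directions in 3, and in 8 at least 1 did not pass. Over all genes tested, 36.5% were lower and 36.1% higher. The matching counts for unrelated pairs were not worked out, so the pair counts are only a description. LIG4 and ABHD13 start 11 bases apart. ABHD13 was at 30.6, 23.0 and 30.1 CPM in siBRG1 and 27.9, 25.4 and 24.5 CPM in control and did not pass (log2FC 0.11, adjusted p = 0.273), beside the fall of LIG4. TMEM167A, next to XRCC4, did not pass either (log2FC 0.02, adjusted p = 0.684).

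FANCB and MOSPD2 start 372 bases apart and were called in opposite directions. MOSPD2 was at 70.2, 72.9 and 72.8 CPM in siBRG1 and 38.9, 39.1 and 36.9 CPM in control (log2FC 0.91, adjusted p = 6.57e-15). FANCM fell while FKBP3 rose by 0.57 on the log2 scale, and ATM rose while NPAT fell by 0.47 (adjusted p = 2.72e-09). CHEK2 and HSCB both rose, HSCB from 10.1 ± 0.757 to 14.4 ± 2.26 CPM (log2FC 0.52, adjusted p = 0.000158), and so did MRE11 and ANKRD49. XRCC6 and DESI1 both fell, DESI1 by 0.58 on the log2 scale, as did PRKDC with MCM4, PALB2 with DCTN5 and RAD52 with ERC1. Beside BRCA1, which did not pass, NBR1 rose by 0.62 (adjusted p = 2.06e-14). The 236 bases between them were taken from the outermost annotated end of BRCA1. BRCA1 has 2 listed RefSeq starts, so the start in use in these cells may lie farther from NBR1.

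**Figure D4:**
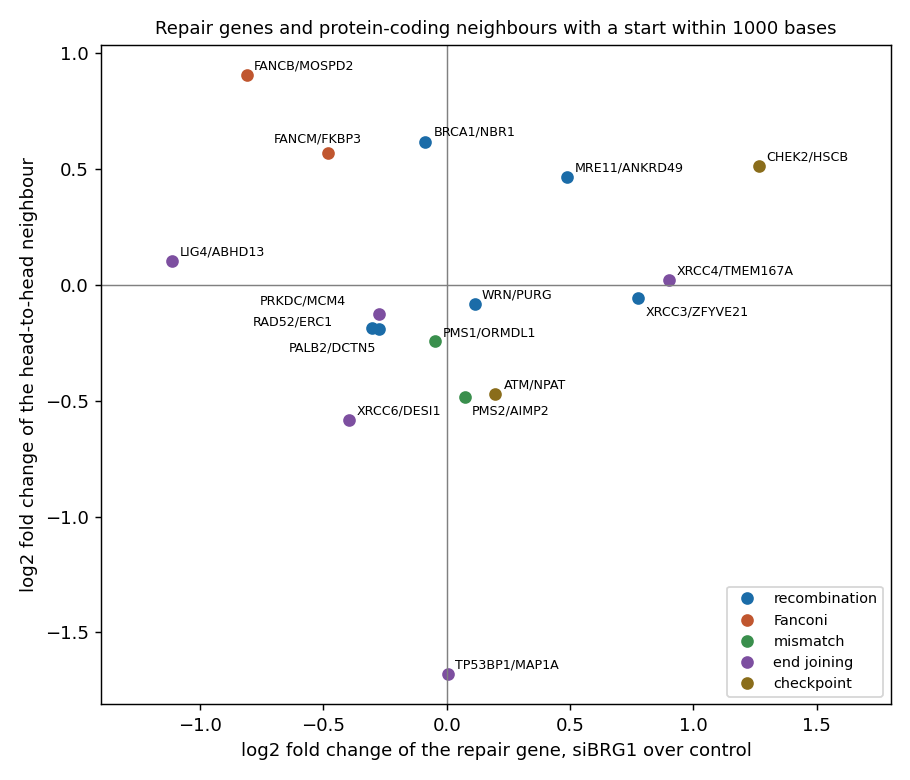
Log2FC of each repair gene (x axis) and of its protein-coding neighbour on the opposite strand (y axis), siBRG1 over control, for the 17 pairs with both tested, coloured by route. FANCB with MOSPD2 and FANCM with FKBP3 lie in the upper left, and LIG4 with ABHD13 and XRCC4 with TMEM167A lie near the horizontal line at 0.

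Where exons overlap, a count can hold less or more than the gene's own RNA. On the same strand, 59.1% of RAD54B exon length overlaps FSBP and 27.9% of ATRIP overlaps TREX1, so reads there could not be given to either gene. On the opposite strand, 76.7% of XRCC3 overlaps KLC1, and antisense reads came to 10.5% of XRCC3 sense reads in siBRG1 and 28.1% in control. Counted without strand, the log2FC of XRCC3 was 0.96. FANCL overlaps VRK2 over 19.7% of its exon length, with antisense reads at 24.9% and 47.5% of sense reads. PMS2 has 11 pseudogenes in the annotation that carried 5476 reads over the 6 libraries, against 3683 for PMS2 itself, and CHEK2 has 4 and XRCC6 has 5 that carried 0 and 92 reads. Reads shared with such copies are lost as multiple matches, so the levels of these 3 genes are uncertain. MRE11, FANCD2 and RBBP8 have 1 pseudogene each with at most 1 read, and the share of such reads differed between the groups.

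The no-feature and multiple-match shares differed between the groups, and fold changes were also fitted with each library's GC and length dependence taken out. Across the 49 genes, which share their libraries, the log2FC correlated with GC percent at Pearson's r = 0.296 (Spearman's rho = 0.215) and with log2 exon length at r = -0.172 (rho = -0.16), given as a description. Over all genes tested, the values were r = 0.141 (rho = 0.199) for GC percent and r = 0.213 (rho = -0.0387) for log2 exon length. The correction was fitted on all of these genes. After correction, 16 repair genes were lower and 17 higher, and the median log2FC came to 0.02, beside 0.02 over all genes tested. The genes with falls in that fit included CLSPN at -0.97, LIG4 at -0.87, POLQ at -0.64, FANCB at -0.61, ATR at -0.46 and BRCA2 at -0.35. CHEK2 stood at 1.34, XRCC4 at 1.10, FANCC at 0.76, FANCL at 0.73 and FANCG at 0.72. FANCD2, MSH3, NBN, PRKDC and XRCC2 no longer passed, and BRIP1 (0.24), CHEK1 (0.18), TP53BP1 (0.24) and WRN (0.24) were called higher. Called values that moved by over 1.5 times and still passed were, besides BRCA2, ATR, FANCM, BLM and MSH6, those of ATM (0.60), ATRIP (-0.41), FANCI (0.30), RAD54B (0.52) and MLH3 (-0.27). The split between lower and higher calls depends on this choice, and the direction of the 11 genes given from CLSPN to FANCG does not.

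**Figure D5:**
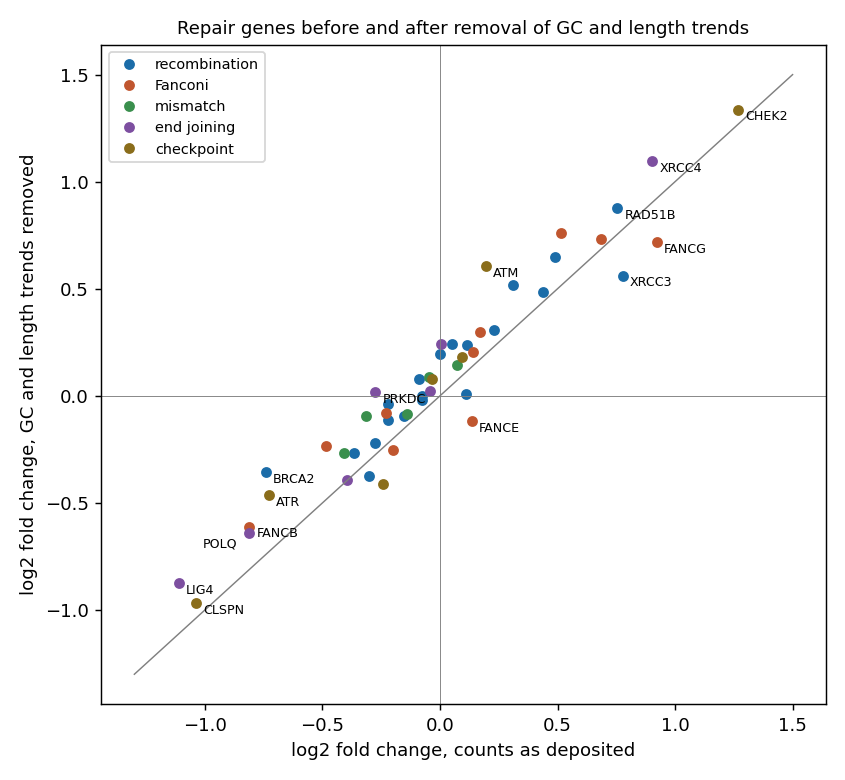
Log2FC of the 49 repair genes in the fit without correction (x axis) and after GC and length correction (y axis), coloured by route, with the line of equal values. BRCA2, ATR and PRKDC lie above that line and FANCG, XRCC3 and FANCE below it, ATM moves from 0.20 to 0.60, and CHEK2, LIG4 and CLSPN keep their sides.

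The authors' deposited table lists each of the 49 genes once. At an adjusted p under 0.05, the authors' deposited table has 23 lower, 13 higher and 13 not passed, with 47 calls as in the fit above and none in the opposite direction. The 2 that differ in the authors' deposited table are BRCA1, at a log2FC of -0.11 (adjusted p = 0.0152), and XRCC5, at -0.07 (adjusted p = 0.0351), both lower there. The median difference between the authors' deposited table and the fit above was -0.03 on the log2 scale over the 49 genes.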

How the data were processed

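The authors deposited raw read counts per gene for each library, in the layout STAR writes, and a table of the whole series with their log2 fold change, its standard error and an adjusted p-value, per the file headers. Trimming with cutadapt and Trim Galore, FastQC, alignment with STAR to GRCh38.p12 and DESeq2 are listed, without order, in the submitters' processing notes. The annotation used for counting is not given in the labels. Symbols, exons and gene positions came from GENCODE 29, which matched 56888 of 58336 identifiers with their version. Sense counts were used, and lines for unmapped, multiple, no-feature and ambiguous reads did not enter library totals or tests. All genes were fitted with edgeR 4.0.16 in R 4.3.3 (TMM, filterByExpr, robust quasi-likelihood, group as the only term, two-sided). Benjamini-Hochberg adjustment ran over all 15830 genes tested, and an adjusted p under 0.05 was a call. In the GC and length correction, splines of each library's deviation on GC percent and log2 exon length entered as offsets, for 15811 genes. Exon length is the union of a gene's exons over all annotated transcripts, 23972 bases for ATM, and can exceed the length of any single transcript. The pipeline was tested on simulated data. Counts of replicates differed beyond sampling noise, so all 6 libraries were kept. CPM is per 1000000 TMM-adjusted sense counts of the genes tested.

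The 49 genes and the lists beside them were chosen with earlier results of these data known. Within a route, the 5 largest falls and rises among called genes averaging 50 counts or more have full statistics, all other repair genes are named with values, and each other list gives its largest rise and fall. Single markers, clamp subunits and ATR activators, neighbours and genes with overlapping exons were named after their values were seen. The alternatives were DESeq2 1.42.0, other size factors, filters, strand, gene sets, depth, a replicate block and leaving out each library. One neighbouring pair of genes and its promoter sequence are not reported here.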

Additional observations from a re-analysis of the deposited data

How the results depend on the processing

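Over 15 alternatives, 26 of the 49 repair genes were called the same each time (14 lower and 12 higher). No gene called in one direction was called in the other. Lower calls ranged from 16 to 24 and higher calls from 12 to 17. Without one library they ranged from 19 to 21 and from 12 to 14, and the calls lost were those of ATRIP, MSH3, RAD54B and XRCC2. Of the 15 genes that had not passed, BRCA1 was called lower in 5 alternatives, CHEK1 and WRN higher in 4 each, RAD54L higher in 3, and EXO1, XRCC5, BRIP1 and TP53BP1 were called in 1 each. Calls were lost in 8 alternatives for MSH3, 6 for RAD54B, 5 each for ATRIP and XRCC2, and 1 each for RAD52, FANCD2, NBN and PRKDC. End joining genes called higher came to 2 after GC and length correction, XRCC4 and TP53BP1, beside 1 otherwise. Depth differs 3.44-fold between the groups on average, and standard errors of the log2 fold change ran from 0.0358 to 0.136 over the 49 genes.

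With the replicate number as a block, 20 repair genes were lower and 13 higher, and MSH3 no longer passed. Deviations from the group means correlated between libraries of the same number at -0.0841, 0.0874 and -0.035 over 6420 genes. Between libraries of different number the correlation reached 0.0877. With 3 libraries per group, these values show no pairing by number and cannot exclude it.

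The log2 fold change changed sign under some alternatives for PRKDC and for 8 genes that had not passed, and the cause was not tested. After GC and length correction it was 0.0179 for PRKDC, 0.0764 for BRCA1, 0.20 for RAD50, -0.12 for FANCE, 0.0875 for PMS1, 0.0210 for XRCC5 and 0.0782 for TOPBP1. With unstranded counts it was 0.0514 for RAD50, 0.00914 for PMS1, 0.0128 for XRCC5 and 0.0231 for TOPBP1. RAD50 was at 0.0140 under the stricter filter of 50 counts and 0.0409 with control libraries thinned. TP53BP1 was at -0.0136 with DESeq2 size factors, -0.0409 with no filter, -0.0379 with protein-coding genes alone, -0.0160 with thinned controls and -0.0135 with the DESeq2 Wald test. Without one library, values ranged from -0.13 to 0.13 for RAD50, from -0.0015 to 0.21 for FANCF, from -0.13 to 0.0047 for PMS1 and from -0.0388 to 0.0377 for TP53BP1.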
